A study of Mus musculus with 47 samples.

Results

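The transcription factor Foxn1 and 8 genes known from the epithelium of the thymic cortex were followed in medullary thymic epithelial cells (mTECs) of the mouse. The members were named by symbol and by no rule on their measured values, but with earlier results of these data known. They were Foxn1, Psmb11, Prss16, Dll4, Ly75, Ctsl, Enpep, Tbata and Cd83. All 9 were present in both tables of raw read counts, among 55471 Ensembl genes listed in either table and 53402 listed in both, and all 9 passed the filter on low counts in each table.

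Foxn1 is the forkhead factor that thymic epithelium needs to form and to support T cells, in the cortex as in the medulla. Among its known target genes are Psmb11, which encodes the β5t subunit of the thymoproteasome of cortical cells, Prss16, which encodes a thymus-specific serine protease, and Dll4, the Notch ligand that commits incoming progenitors to the T lineage. Ctsl encodes cathepsin L, which cuts peptides for MHC class II in cortical epithelium. Ly75 encodes the endocytic receptor CD205 (DEC-205), Enpep encodes the aminopeptidase recognised by antibodies to Ly51, and Cd83 encodes a membrane protein that slows the turnover of MHC class II in thymic epithelium. CD205 and Ly51 serve as surface labels of cortical cells. Tbata encodes a protein of thymic stroma and testis. Cortical and medullary epithelium arise from common progenitors, and some medullary cells descend from cells that once expressed Psmb11.

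RNA was sequenced from C57BL/6 thymus cells sorted as CD45-negative, EpCAM-positive and Ly51-negative, with high (mTEChi) or low (mTEClo) surface MHC class II. The sort therefore selected against the protein product of Enpep, while its transcript was counted like any other. Adult mice, aged 4 to 6 weeks, gave 7 WT and 4 AireKO libraries of mTEChi and 8 WT and 4 AireKO libraries of mTEClo. Neonates, aged 1 to 6 days, gave 5 Ctrl, 3 EEDcKO, 3 AireKO and 3 AireEEDdKO libraries of mTEChi and 3 Ctrl, 4 EEDcKO and 3 AireEEDdKO libraries of mTEClo. Aire makes mature mTECs transcribe genes that otherwise belong to other tissues, and the AireKO mice were deficient in it in all cells. EED belongs to the core of the Polycomb repressive complex PRC2, which keeps genes silent. EEDcKO mice carried a floxed Eed gene and Foxn1-Cre, a Cre driven by Foxn1 itself and so active in cortical and medullary epithelium, and AireEEDdKO mice lacked both Aire and, in these cells, EED. The Cre status of the neonatal Ctrl and AireKO mice is not given in the labels. Loss of EED and the presence of Foxn1-Cre therefore cannot be told apart, which bears most on the level of Foxn1 itself. All adult AireKO mice were male, and some neonatal libraries pooled male and female pups. The labels do not say that replicates were separate animals, so p-values measure the spread between libraries. Some pairs of equal age were closer than the rest of their group, by chi-square per degree of freedom between counts. In adult mTEChi AireKO it was 1.31 for replicates 1 and 2 and 1.25 for 3 and 4, against 3.62 to 5.66 across these pairs. In neonatal mTEChi Ctrl it was 1.23 for replicates 1 and 2, and 3.75 to 4.29 from these to the others. A fit without 1 library keeps its near match, and why these pairs were close was not tested.

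Adult libraries held 1602125 to 3938588 counts and neonatal libraries 1578579 to 4817418. Aire itself fell from 818 ± 56.0 CPM (counts scaled to library size, mean ± SD throughout) in adult mTEChi WT to 29.3 ± 11.6 in mTEChi AireKO, and Eed fell from 29.1 ± 7.93 in neonatal mTEChi Ctrl to 14.8 ± 4.62 in mTEChi EEDcKO. Which parts of either gene the reads covered was not tested. Epcam ran from 183 to 317 CPM over the 11 group means, and the summed level of 6 mature mTEC markers was higher in mTEChi than in mTEClo for each genotype. In 6 adult libraries, namely all 4 of mTEChi AireKO and replicates 3 and 4 of mTEClo AireKO, no read was counted on any of the 37 mitochondrial genes, so in adult mTEChi this difference and the genotype cannot be told apart. Adult WT libraries were from 4 and 5 weeks and adult AireKO libraries from 5 and 6 weeks, so age partly went with genotype. In adult mTEClo AireKO the libraries of 6 weeks were those without mitochondrial counts. The neonatal groups also differed in age. All mTEClo Ctrl libraries were from days 1 to 3, all Aire-deficient libraries from days 4 to 6, and the other groups held both. Neonatal mTEClo libraries past day 3 carried later sample numbers than all other neonatal libraries, so in mTEClo age and deposit cannot be told apart. In bulk RNA, fewer cells of a type and less RNA per cell cannot be told apart.

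The core that Foxn1 is known to bind, GACGC, was searched on both strands in the promoters of the members, 250 bases before to 50 after the RefSeq start (GRCm38.p6). Of the 9 members, 7 matched a promoter in that table. Psmb11 held 2 matches, which begin 239 and 62 bases before the start, and Enpep held 1, which begins 8 bases before it. The promoters of Foxn1, Dll4, Ly75, Ctsl and Tbata held 0. Among 32851 promoters of this length 27.2% held at least 1 match and 8.15% at least 2. The 2 promoters with a match and that of Tbata, whose level followed that of Foxn1 most closely among the members, are shown with the match in capitals (GACGC, or GCGTC where it lies on the other strand). They span chr14:54625060-54625359 (+) for Psmb11, chr3:129332700-129332999 (−) for Enpep and chr10:61171714-61172013 (+) for Tbata.
Psmb11: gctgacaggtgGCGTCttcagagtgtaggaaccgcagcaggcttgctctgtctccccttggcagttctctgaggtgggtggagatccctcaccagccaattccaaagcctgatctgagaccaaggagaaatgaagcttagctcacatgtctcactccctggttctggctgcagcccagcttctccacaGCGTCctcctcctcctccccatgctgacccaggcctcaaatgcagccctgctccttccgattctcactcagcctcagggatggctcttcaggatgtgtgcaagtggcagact
Enpep: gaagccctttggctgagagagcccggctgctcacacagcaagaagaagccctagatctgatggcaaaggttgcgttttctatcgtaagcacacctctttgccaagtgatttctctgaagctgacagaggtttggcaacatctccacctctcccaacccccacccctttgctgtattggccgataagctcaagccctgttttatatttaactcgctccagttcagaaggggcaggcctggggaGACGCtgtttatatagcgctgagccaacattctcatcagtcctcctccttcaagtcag
Tbata: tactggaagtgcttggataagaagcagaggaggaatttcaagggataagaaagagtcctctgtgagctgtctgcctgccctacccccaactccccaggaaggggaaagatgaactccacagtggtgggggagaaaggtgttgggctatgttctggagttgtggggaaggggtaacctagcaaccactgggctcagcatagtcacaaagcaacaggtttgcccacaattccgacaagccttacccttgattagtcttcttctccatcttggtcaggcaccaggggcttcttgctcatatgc
GC content was 57.3% in the Psmb11, 51.3% in the Enpep and 51.7% in the Tbata promoter, against a median of 52.7% over all promoters. These letters describe the windows only, and binding of Foxn1 was not measured.

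All 9 are protein-coding genes on GRCm38: Foxn1 on chromosome 11 (78357577 to 78386558, − strand), Psmb11 on 14 (54621433 to 54629556, +), Prss16 on 13 (22002173 to 22009742, −), Dll4 on 2 (119325784 to 119335962, +), Ly75 on 2 (60292103 to 60383303, −), Ctsl on 13 (64359337 to 64370890, −), Enpep on 3 (129269175 to 129332720, −), Tbata on 10 (61171954 to 61188841, +) and Cd83 on 13 (43784775 to 43803132, +). Counts cover whole genes, and no exon was measured apart. Exons of other annotated genes overlapped those of Ctsl over 2137 of its 6489 exonic bases, of Ly75 over 249 of 6905 and of Dll4 over 214 of 3852. Since strand was ignored in counting, reads of Ctsl are uncertain over that stretch.

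Foxn1 itself was detected in all 47 libraries. Group means ran from 81.6 ± 22.7 CPM in adult mTEClo WT to 329 ± 68.9 CPM in adult mTEChi AireKO. In adult mTEChi WT the lowest, median and highest libraries had 165, 218 and 249 CPM, and in adult mTEClo WT 53.2, 83.6 and 109 CPM. In neonatal mTEChi Ctrl the libraries had 169, 170, 157, 147 and 172 CPM, against 203, 180 and 279 CPM in neonatal mTEClo Ctrl. The fractions thus stood in opposite order in the adult WT and neonatal Ctrl groups, a contrast that was not tested because the tables were fitted apart. In the order of the 11 group means of Foxn1, every neighbouring pair of groups overlapped.

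The distribution of the 8 other members over the groups took several forms. For Psmb11, Prss16, Ctsl, Dll4 and Ly75 the highest group mean was that of neonatal mTEClo Ctrl, and for these 5 genes its range lay above the range of the next group. For Psmb11 this meant 232, 190 and 373 CPM in mTEClo Ctrl, against at most 81.9 CPM in any of the other 44 libraries. Tbata was highest in adult mTEChi AireKO, Cd83 in neonatal mTEChi AireKO and Enpep in neonatal mTEClo EEDcKO, and each of these ranges overlapped that of the next group. The lowest group means were 4.92 ± 4.07 CPM for Psmb11 and 1.75 ± 0.62 CPM for Cd83, both in adult mTEClo WT, and 2.89 ± 1.80 CPM for Enpep in adult mTEChi AireKO. These 3 rest on few reads, with counts of 5 to 26, 2 to 12 and 3 to 15 per library.

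**Figure D1:**
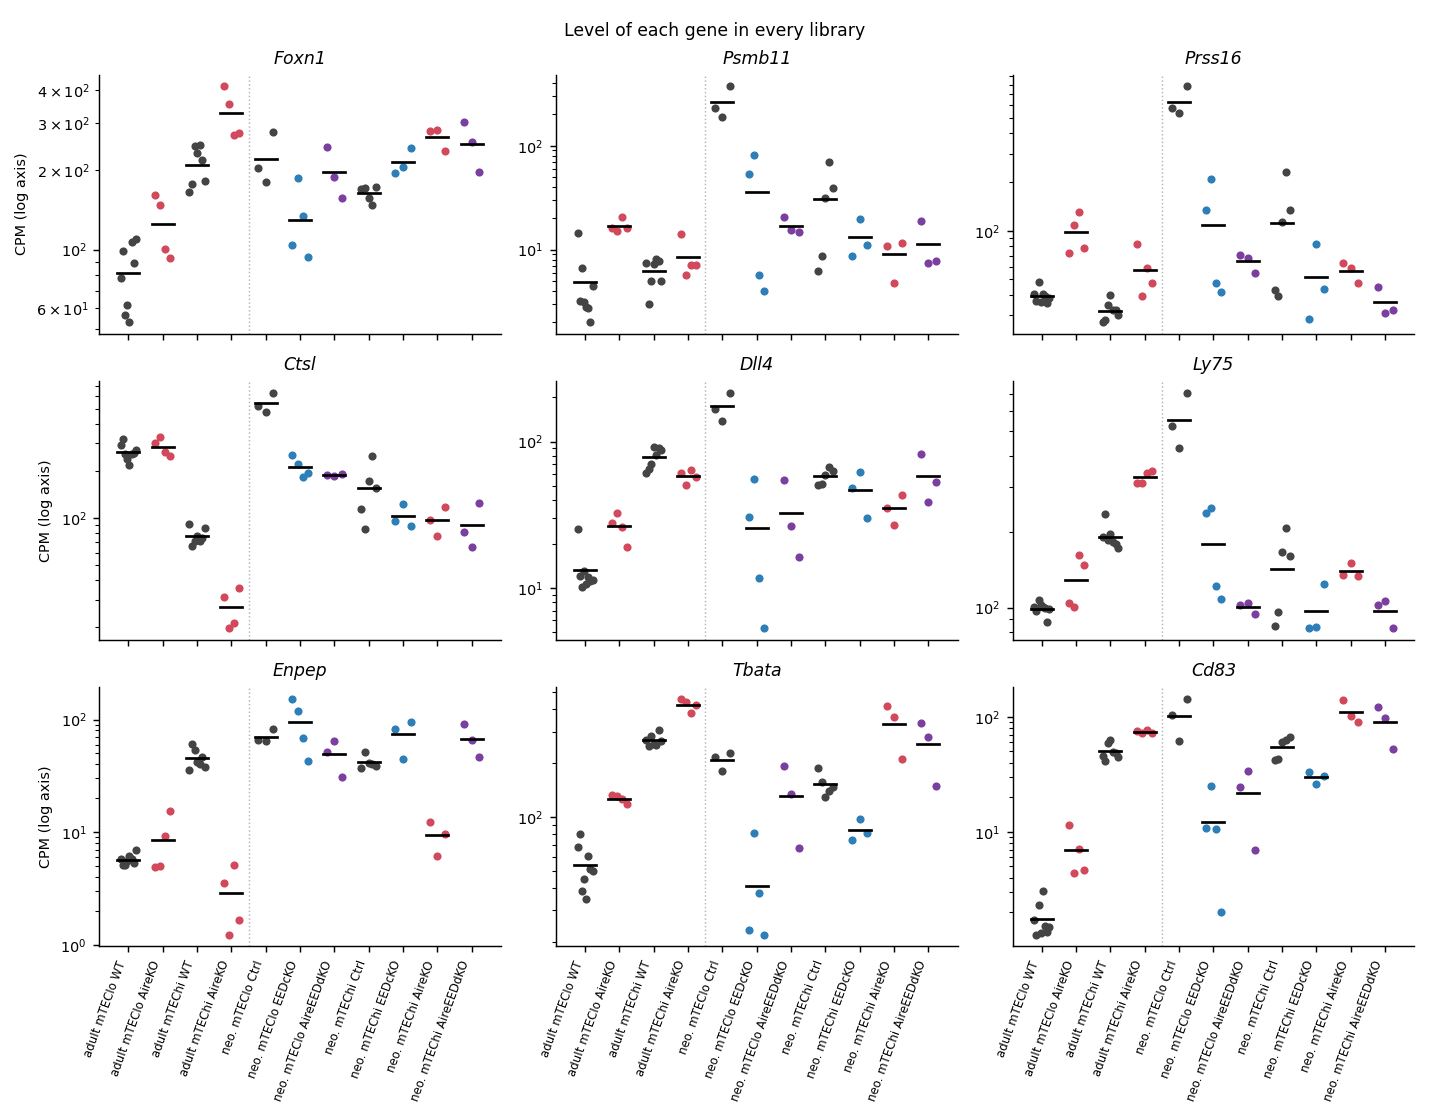
Level of each member in every library, in CPM on a log axis, with 1 panel per gene and the 11 groups along the x axis. Points are libraries, black bars are group means, and colours mark WT or Ctrl (grey), AireKO (red), EEDcKO (blue) and AireEEDdKO (purple). Neonatal mTEClo Ctrl stands highest for Psmb11, Prss16, Ctsl, Dll4 and Ly75.

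Levels of different genes were set side by side per length, as CPM per kilobase of exon (RPKM). In adult mTEChi WT, Tbata had 111 ± 8.44 RPKM and Foxn1 65.2 ± 10.8, while Psmb11 was last of the 9 at 1.30 ± 0.40 RPKM. In neonatal mTEClo Ctrl, Prss16 was first at 150 ± 31.9 RPKM, and Psmb11 reached 55.3 ± 19.9 RPKM, close to the 68.6 ± 16.0 RPKM of Foxn1.

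The first comparison asked how the genes differ between mTEChi and mTEClo. In adult WT, 7 of the 9 members passed (adjusted p under 0.05, edgeR quasi-likelihood test with Benjamini-Hochberg adjustment over all genes, as for all adjusted p below), 6 higher and 1 lower in mTEChi, where 70.5% of all tested genes were called. The median log2 fold change was 1.38 over the members and 0.00443 over all genes. Ranges of the fractions did not overlap for 7 members, as for 44.4% of all genes. Cd83 rose most, from a median of 1.51 CPM in mTEClo WT to 48.4 CPM in mTEChi WT, with a log2 fold change of 4.76 (SE 0.18, adjusted p 4.37e-19). Enpep followed with 2.97 (SE 0.19, adjusted p 5.39e-14). All 7 mTEChi WT libraries had 35.9 to 61.2 CPM of Enpep and all 8 mTEClo WT libraries 5.09 to 6.90 CPM. The Enpep transcript was thus present in the Ly51-negative mTEChi sort, and which cells held it was not tested.

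Dll4 was higher by 2.63, Tbata by 2.36, Foxn1 by 1.38 and Ly75 by 0.94 on the log2 scale in adult mTEChi WT. Ctsl went the other way. The mTEChi WT libraries had 66.0, 74.2 and 91.1 CPM of Ctsl (lowest, median and highest) and the mTEClo WT libraries 219, 258 and 319 CPM, a log2 fold change of −1.78 (SE 0.10, adjusted p 3.53e-15). Of 5 other cathepsins Ctss, Ctsh and Ctsz were higher in mTEChi and Ctsd was lower, as Ctsl was. The targets named for the cortex, Psmb11 and Prss16, did not pass, with log2 fold changes of 0.48 (SE 0.31, adjusted p 0.179) and −0.29 (SE 0.14, adjusted p 0.0678). Without replicate 1 of mTEClo WT, which had 14.4 CPM of Psmb11 where the group's median was 3.16, Psmb11 passed at 0.79 (adjusted p 0.00891).

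Dendritic cells also express Cd83 and Ly75. The summed level of 7 dendritic and myeloid markers was 361 to 424 CPM in adult mTEChi WT and 90.8 to 129 CPM in mTEClo WT, and all 7 were called higher in mTEChi. Thymocyte markers summed to 82.1 to 117 CPM and 28.7 to 40.7 CPM, with 5 of 6 tested called higher. The summed level of 5 mesenchymal markers was 185 to 352 CPM in mTEChi WT and 54.1 to 87.5 CPM in mTEClo WT. None of the markers in these lists was at 0 in every library of either group, and their part in the result was not tested.

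In adult AireKO all 9 members passed between the fractions, where 57.5% of all genes were called, with 5 higher and 4 lower in mTEChi. The median log2 fold change was 1.19 over the members and 0.00 over all genes. Foxn1, Tbata, Ly75, Cd83 and Dll4 again were higher in mTEChi. Ctsl differed more widely than in WT. The mTEChi AireKO libraries had 31.2, 19.6, 21.2 and 35.5 CPM of Ctsl against 301, 328, 264 and 250 CPM in mTEClo AireKO, a log2 fold change of −3.41 (SE 0.15, adjusted p 8.99e-17). Enpep was lower in mTEChi AireKO by 1.67 on the log2 scale, the reverse of its direction in WT. Psmb11 (−1.02, adjusted p 0.0160) and Prss16 (−0.78, adjusted p 0.000436) were lower too, but Psmb11 had an adjusted p of 0.0502 without replicate 3 of mTEClo AireKO and 0.0563 without replicate 2 of mTEChi AireKO. With the replicate number as a block, fitted over these 2 groups alone, all 9 still passed, where 59.7% of all genes were called. Over libraries of 5 weeks alone 7 passed, where 48.5% of all genes were called, and Enpep (−1.08, adjusted p 0.0930) and Psmb11 (−0.69, adjusted p 0.142) did not. At that age only the mTEClo AireKO libraries had mitochondrial counts, so fraction and that difference cannot be told apart. Over libraries without mitochondrial counts all 9 passed, where 58.0% of all genes were called. Enpep was there at −2.09 (adjusted p 0.00107) and Psmb11 at −1.17 (adjusted p 0.00694).

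In neonatal Ctrl the picture differed. Of the 9 members 5 passed and all 5 were lower in mTEChi, where 37.4% of all genes were called and 18.0% were called lower. The members' median log2 fold change was −1.56, and that of all genes −0.00505. Psmb11 was at 6.19, 8.66, 31.1, 69.2 and 38.9 CPM in mTEChi Ctrl and at 232, 190 and 373 CPM in mTEClo Ctrl, a log2 fold change of −3.01 (SE 0.61, adjusted p 0.000733). The 2 lowest mTEChi libraries were those of day 6, and the groups did not overlap. Prss16 (−2.45), Ly75 (−1.94), Ctsl (−1.78) and Dll4 (−1.56) were lower as well. Foxn1 did not pass at −0.43 (SE 0.19, adjusted p 0.0723).

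Since mTEClo Ctrl held no library past day 3, the comparison was repeated over libraries of days 1 to 3 alone. There 6 members passed, all lower in mTEChi, where 37.8% of all genes were called, with Psmb11 at −2.49, Prss16 at −1.97 and Enpep added at −0.79 (adjusted p 0.0169). Dll4 and Ly75 were therefore lower in mTEChi than in mTEClo in neonatal Ctrl and higher in adult WT, as each table's own fit gave it.

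In the neonatal mutants fewer of these 5 genes were called between the fractions. In EEDcKO, 5 members passed, where 38.0% of all genes were called: Foxn1 (0.73), Tbata (1.07) and Cd83 (1.34) were higher in mTEChi and Ly75 (−0.87) and Ctsl (−1.05) lower. At a 2-fold minimum 3 remained, where 21.8% of all genes were called. The count of 5 went to 2 without mTEClo EEDcKO replicate 1, and to 3 without mTEClo EEDcKO replicate 4 or any of the 3 mTEChi EEDcKO libraries. Over EEDcKO libraries of days 1 to 3 alone 6 members passed, where 35.3% of all genes were called, with Foxn1 higher and Psmb11, Prss16, Ly75, Ctsl and Enpep lower in mTEChi. In AireEEDdKO, 3 members passed, where 39.2% of all genes were called, namely Cd83 (2.03) and Tbata (0.95, adjusted p 0.0495) higher and Ctsl (−1.04) lower. Same-numbered AireEEDdKO libraries deviated together and had the same labelled age, but replicate 1 differed in labelled sex. With the replicate number as a block 7 members passed, where 51.4% of all genes were called. Foxn1 at 0.40, Dll4 at 0.97 and Enpep at 0.51 were then also higher, and Prss16 at −0.80 lower.

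**Figure D2:**
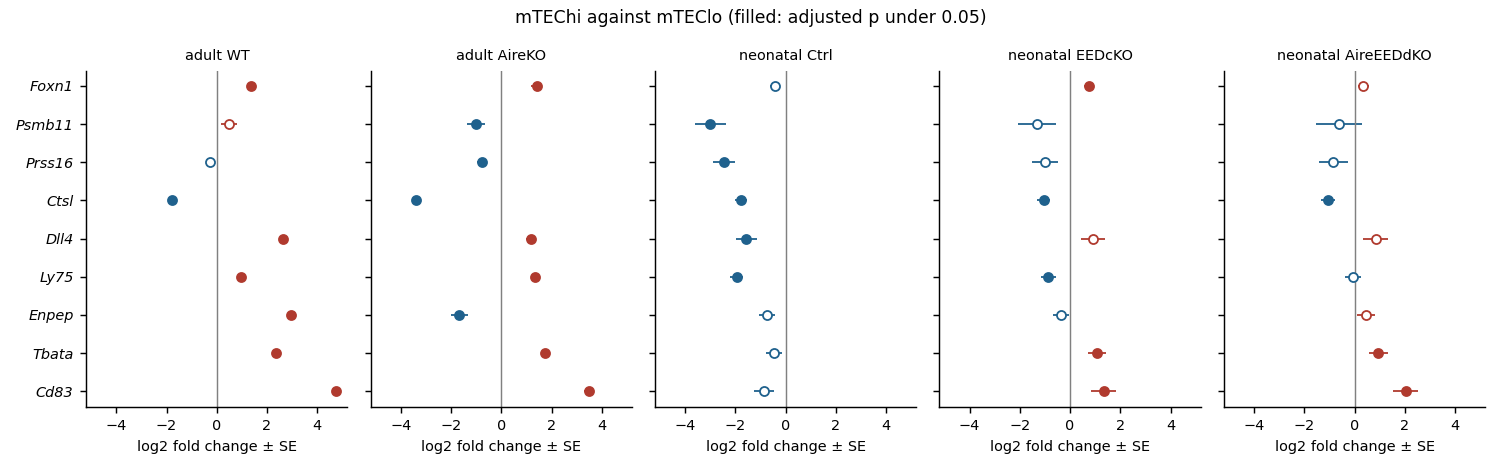
Log2 fold change of mTEChi over mTEClo for each member in adult WT, adult AireKO, neonatal Ctrl, neonatal EEDcKO and neonatal AireEEDdKO, with bars of 1 SE. Filled points passed (red higher, blue lower in mTEChi) and open points did not. Cd83 runs from 4.76 in adult WT to −0.87 in neonatal Ctrl, and Ctsl lies below 0 in every comparison.

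Loss of Aire was compared in each adult fraction. In adult mTEChi 8 of 9 members passed, 5 higher and 3 lower in AireKO, where 55.3% of all genes were called, and ranges did not overlap for 6 members against 38.1% of all genes. At a 2-fold minimum 2 members passed, where 23.4% of all genes did. The members' median log2 fold change was 0.55, and that of all genes −0.0149. Enpep fell most. Every mTEChi WT library had at least 35.9 CPM of Enpep, and the AireKO libraries had 3.51, 1.23, 5.14 and 1.67 CPM, a 15.0-fold difference (log2 fold change −3.91, SE 0.29, adjusted p 1.43e-11). Ctsl fell 2.87-fold (−1.52, SE 0.14, adjusted p 1.29e-09), from at least 66.0 CPM in WT to at most 35.5 CPM in AireKO.

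Foxn1 stood at 414, 356, 270 and 276 CPM in adult mTEChi AireKO, all above the highest WT library at 249 CPM (log2 fold change 0.64, adjusted p 0.00302). Tbata moved alike, with 456, 437, 382 and 421 CPM against at most 307 CPM in WT (log2 fold change 0.66, SE 0.13, adjusted p 7.26e-05). Ly75 rose by 0.78 (SE 0.10, adjusted p 2.05e-07), Prss16 by 0.81 and Cd83 by 0.55. Dll4 was lower by 0.43 (adjusted p 0.0219), a call that was lost without mTEChi AireKO replicate 2 (adjusted p 0.0830) or replicate 4 (0.0514). Psmb11 had 0.41 (SE 0.35, adjusted p 0.344). Dendritic and myeloid markers summed to 511 to 569 CPM in mTEChi AireKO against 361 to 424 CPM in WT, with 2 of 7 called higher (Zbtb46, Lyz2) and 4 lower. Their part in the rise of Ly75 and Cd83 was not tested. Among 6 other catalytic proteasome subunits 4 were called higher in mTEChi AireKO, including the immunoproteasome genes Psmb8, Psmb9 and Psmb10.

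In adult mTEClo 8 of 9 members passed and all 8 were higher in AireKO, where 24.9% of all genes were called and 13.6% were called higher. At a 2-fold minimum 5 members passed, where 8.3% of all genes did. With age as a term 5 passed, and the share of all genes called in that fit is not given. The members' median log2 fold change was 1.01, and that of all genes 0.000785. Psmb11 had 16.2, 15.0, 20.9 and 16.0 CPM in mTEClo AireKO, above each of the 8 WT libraries, whose lowest, median and highest were 2.02, 3.16 and 14.4 CPM (log2 fold change 1.91, SE 0.32, adjusted p 5.73e-05). Cd83 rose by 1.84 (adjusted p 1.28e-05), from counts of 2 to 12 per WT library to 7 to 24. Prss16 stood at 73.1, 109, 131 and 78.0 CPM against at most 48.2 CPM in WT (1.30, SE 0.15, adjusted p 3.64e-07). Tbata rose by 1.27, and Dll4 by 1.01. These 5 genes also passed within the mTEClo libraries that had mitochondrial counts.

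The smaller rises in adult mTEClo AireKO depended on single libraries. Foxn1 at 0.61 (adjusted p 0.0168) lost its call without replicate 1 (adjusted p 0.0978) or 2 (0.0617) of mTEClo AireKO, but passed among libraries with mitochondrial counts (0.95, adjusted p 0.00225) and among those of 5 weeks (0.59, adjusted p 0.00246). Ly75 at 0.40 (adjusted p 0.00522) lost its call without replicate 3 (0.0734), and was at 0.07 (adjusted p 0.725) among libraries with mitochondrial counts and 0.10 (adjusted p 0.489) among those of 5 weeks. Enpep at 0.73 (adjusted p 0.0402) rested on 4.87, 5.01, 9.23 and 15.3 CPM and fell to 0.25 (adjusted p 0.563) without replicate 4. Among libraries with mitochondrial counts Enpep was at −0.20 (adjusted p 0.740), so neither direction holds for it. The mTEClo AireKO libraries with mitochondrial counts, replicates 1 and 2, were also those of 5 weeks, so these subsets are not separate checks. Ctsl had 0.11 (SE 0.11, adjusted p 0.497). Dendritic and myeloid markers summed to 150 to 181 CPM in mTEClo AireKO and 90.8 to 129 CPM in WT, with 1 of 7 called higher and 1 lower, and their part was not tested.

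The effect of Aire loss differed between the adult fractions for 7 of 9 members, where 25.3% of all genes were called. The difference of the effects, mTEChi minus mTEClo, was −4.64 (SE 0.40, adjusted p 2.63e-09) for Enpep, −1.63 for Ctsl, −1.50 for Psmb11, −1.44 for Dll4, −1.29 for Cd83 and −0.61 for Tbata. It was 0.39 for Ly75 at an adjusted p of 0.0496, which passed the threshold in only 4 of 23 fits without a library. For Psmb11 1 of 23 such fits lost the call (adjusted p 0.0520). Foxn1 had 0.04 (SE 0.26, adjusted p 0.948). All 4 mTEChi AireKO libraries lacked mitochondrial counts and only 2 of mTEClo AireKO did, which cannot be told apart from this difference.

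In neonatal mTEChi 4 of 9 members passed between AireKO and Ctrl, where 28.8% of all genes were called. At a 2-fold minimum 2 passed, where 16.4% of all genes did. Over the members the median log2 fold change was −0.69, and over all genes 0.0346. Foxn1 had 282, 282 and 237 CPM in AireKO against at most 172 CPM in Ctrl (log2 fold change 0.71, SE 0.19, adjusted p 0.00701). Tbata was higher by 1.12 (SE 0.33, adjusted p 0.0140), Ctsl lower by 0.69 (adjusted p 0.0429) and Enpep lower by 2.14 (SE 0.42, adjusted p 0.000734), from at least 37.1 CPM in Ctrl to 12.3, 6.20 and 9.61 CPM. Without AireKO replicate 2 only Enpep passed, and without AireKO replicate 1 or Ctrl replicate 3 the count was 2. Since all AireKO libraries were from days 4 to 6, the comparison was repeated at those ages with the 2 Ctrl libraries of day 6. Enpep kept its fall there (−2.32, adjusted p 0.00382), Ly75 was higher by 0.53 (adjusted p 0.0277), and Foxn1 (0.56, adjusted p 0.124), Tbata (0.84, adjusted p 0.240) and Ctsl (−0.12, adjusted p 0.810) did not pass, where 11.9% of all genes were called.

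Loss of EED was compared with Ctrl in each neonatal fraction. In neonatal mTEClo 8 of 9 passed between EEDcKO and Ctrl and all 8 were lower in EEDcKO, where 30.7% of all genes were called and 13.9% were called lower. Ranges did not overlap for 7 members, as for 36.7% of all genes. The median log2 fold change was −2.37 over the members and −0.00575 over all genes. Cd83 fell 8.78-fold, Psmb11 7.59-fold, Dll4 6.98-fold, Prss16 5.87-fold, Tbata 5.16-fold, Ly75 3.12-fold and Ctsl 2.56-fold. Foxn1 fell least of the 8, from 203, 180 and 279 CPM to 104, 186, 134 and 93.4 CPM. The 8 calls held when any library was left out.

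The values by library are given here with age. Psmb11 had 52.9 and 81.9 CPM in the EEDcKO libraries of days 2 to 3 and day 1, and 5.76 and 4.04 CPM in those of days 6 and 4, against 190 to 373 CPM in Ctrl (log2 fold change −2.92, SE 0.66, adjusted p 0.00185). Dll4 had 30.6 and 55.3 CPM, then 11.7 and 5.30 CPM, in the same order, against 139 to 216 CPM in Ctrl (−2.80, SE 0.46, adjusted p 9.12e-05). Prss16 ran from 41.6 to 208 CPM against 534 to 781 CPM in Ctrl. Both younger EEDcKO libraries lay above both older ones for these 3 genes and all 4 lay below Ctrl. The older EEDcKO libraries were also those with later sample numbers, so age and deposit cannot be told apart.

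Over libraries of days 1 to 3 alone all 9 members passed in mTEClo, 8 lower, where 26.8% of all genes were called. Psmb11 was then at −2.02 (adjusted p 0.00111), Prss16 at −1.92, Dll4 at −2.06, Cd83 at −2.57, Tbata at −2.06, Ly75 and Ctsl each at −1.25 and Foxn1 at −0.66 (adjusted p 0.0422). Enpep alone went up, at 0.89 (adjusted p 0.0156), and at all ages it had 0.43 (SE 0.33, adjusted p 0.338). Over all ages, of 6 other catalytic proteasome subunits 1 was called higher and 2 lower. Psmb8 rose by 0.99, Psmb10 fell by 0.74 and Psmb7 fell by 0.37 on the log2 scale.

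Levels of cell type markers moved in the same comparison. Mesenchymal markers (5 genes, 4 called higher and 1 lower) summed to 118 to 124 CPM in mTEClo Ctrl and 448 to 635 CPM in EEDcKO. Markers of mTEClo (4 genes, 3 called higher) summed to 538 to 648 CPM and 890 to 1373 CPM, and mature mTEC markers to 1504 to 1637 CPM and 933 to 1332 CPM. Whether the fall of the members went with a change in cell content was not tested.

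In neonatal mTEChi 0 of 9 members passed between EEDcKO and Ctrl by edgeR, where 32.6% of all genes were called. At an unadjusted p under 0.05 there were 6, and DESeq2 called 1. Tbata stood at 74.3, 97.3 and 80.8 CPM in EEDcKO, below the 129 to 188 CPM of Ctrl (log2 fold change −0.84, SE 0.35, adjusted p 0.0705), and Cd83 at 32.8, 25.8 and 30.5 CPM, below 42.2 to 66.3 CPM (−0.93, adjusted p 0.112). Foxn1 stood the other way, with 194, 206 and 243 CPM above the highest Ctrl library at 172 CPM (0.40, SE 0.19, adjusted p 0.109). The ranges of these 3 genes were apart, as those of 31.3% of all genes were. Enpep just missed the threshold with 0.82 (SE 0.32). Leaving out mTEChi Ctrl replicate 2 gave 2 calls, and leaving out Ctrl replicate 1 or EEDcKO replicate 2 gave 1. Over libraries of days 1 to 3 alone 6 passed, where 32.5% of all genes were called: Psmb11 at −1.56, Prss16 at −1.32, Cd83 at −1.18, Ctsl at −0.87 and Ly75 at −0.78 were lower and Enpep at 0.77 higher. Mesenchymal markers summed to 233 to 307 CPM in mTEChi Ctrl and 483 to 766 CPM in EEDcKO. Markers of mTEClo summed to 397.9 to 463.5 CPM and 854.8 to 1034 CPM, and mature mTEC markers to 1714 to 2834 CPM and 1806 to 3021 CPM. The part of these lists was not tested.

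A difference of the EED effect between the neonatal fractions was called for Foxn1 (mTEChi minus mTEClo 1.17, SE 0.27, adjusted p 0.0242) and Dll4 (2.49, SE 0.63, adjusted p 0.0369), 2 of 9 members where 1.98% of all genes were called. Among days 1 to 3 the same 2 genes passed, where 5.19% of all genes were called. Without mTEClo Ctrl replicate 3 the count was 0, without mTEClo EEDcKO replicate 2 it was 4, and in 10 of the other 13 fits without a library it was 1. The other 7 members did not pass, with Enpep at 0.39 and Cd83 at an adjusted p of 0.0757.

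EED was also lost on the AireKO background. In neonatal mTEChi, with 3 libraries of days 4, 6 and 4 in each group, 1 of 9 members passed between AireEEDdKO and AireKO, where 16.8% of all genes were called. In this fit over all groups that gene was Enpep. AireEEDdKO had 91.3, 65.3 and 46.8 CPM and AireKO 12.3, 6.20 and 9.61 CPM, a 7.08-fold rise (log2 fold change 2.82, SE 0.45, adjusted p 0.000117) that held when any library was left out. Same-numbered libraries of these groups had the same labelled age and sex, and each correlated best with its own number. With the replicate number as a block, fitted over these 2 groups alone, 5 members passed, where 29.9% of all genes were called: Enpep at 2.74 and Dll4 at 0.66 (adjusted p 0.0234) were higher, and Prss16 at −0.63 (adjusted p 0.0118), Ly75 at −0.53 (adjusted p 0.00567) and Tbata at −0.39 (adjusted p 0.00996) lower in AireEEDdKO. Without the block 3 passed in these 2 groups alone, where 21.6% of all genes were called. Enpep thus stood at 41.9 ± 5.57 CPM in Ctrl, 9.38 ± 3.07 in AireKO, 74.2 ± 26.6 in EEDcKO and 67.8 ± 22.3 in AireEEDdKO. The interaction of both losses was 2.01 for Enpep (SE 0.55, adjusted p 0.0642). No member passed that test by edgeR, where 1.57% of all genes were called. At an unadjusted p under 0.05 there was 1, DESeq2 called 1, and without AireEEDdKO replicate 3 Enpep passed at 2.22 (adjusted p 0.0392). Mesenchymal markers summed to 218 to 304 CPM in AireKO, with Pdgfra at 0, and 363 to 642 CPM in AireEEDdKO. Markers of mTEClo summed to 527.5 to 639.9 CPM and 707.6 to 814 CPM, and mature mTEC markers to 1891 to 3087 CPM and 1624 to 2933 CPM. The part of these lists was not tested.

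On the EEDcKO background Tbata was higher in AireEEDdKO than in EEDcKO in both fractions. In mTEChi all AireEEDdKO libraries were from days 4 to 6 but only 1 EEDcKO library was, so age was not matched there. In mTEChi Tbata had 334, 280 and 149 CPM in AireEEDdKO against 74.3, 97.3 and 80.8 CPM in EEDcKO (log2 fold change 1.58, SE 0.39, adjusted p 0.00571), and Cd83 rose by 1.61 (adjusted p 0.0199). These were 2 of 9 members, where 22.5% of all genes were called, and the call of Cd83 was lost without EEDcKO replicate 2 or 3 or AireEEDdKO replicate 1 or 2 (adjusted p up to 0.0923). In mTEClo Tbata had 193, 135 and 66.9 CPM against at most 80.8 CPM (1.70, SE 0.36, adjusted p 0.00535), the only 1 of 9 members to pass, where 8.02% of all genes were called. Without mTEClo AireEEDdKO replicate 1 it was at 1.33 (adjusted p 0.0672). Tbata also lost its call when only the mTEClo groups compared were fitted, with or without the replicate block. The count was 2 without mTEClo AireEEDdKO replicate 3 or EEDcKO replicate 2, and 3 without EEDcKO replicate 3 or 4. With EEDcKO and AireEEDdKO libraries of days 4 to 6 alone Tbata passed in mTEClo, where 0.981% of all genes were called.

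**Figure D3:**
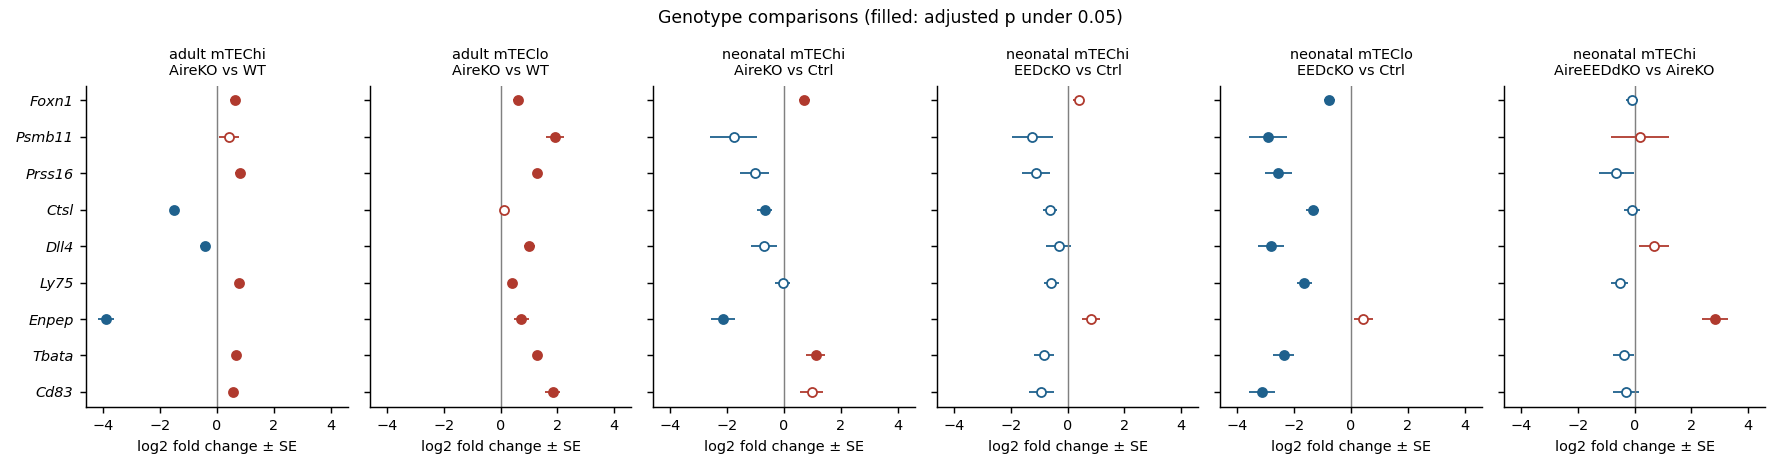
Log2 fold change of each member with loss of Aire (adult mTEChi, adult mTEClo, neonatal mTEChi) and with loss of EED (neonatal mTEChi, neonatal mTEClo, and neonatal mTEChi on the AireKO background), with bars of 1 SE. Filled points passed (red higher, blue lower in the mutant) and open points did not. Enpep falls by 3.91 in adult mTEChi and by 2.14 in neonatal mTEChi without Aire, and 8 members fall in neonatal mTEClo without EED.

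Age was examined within the groups of each table, by a term added after the data had been seen. In mTEClo EEDcKO this term cannot separate age from the later sample numbers of the older libraries. Among the neonatal libraries 3 of 9 members passed and all 3 fell with each day, where 3.03% of all genes were called and 1.87% were called lower. Psmb11 fell by 0.55 per day on the log2 scale (SE 0.10, adjusted p 0.00767), Prss16 by 0.33 (SE 0.07, adjusted p 0.0116) and Ly75 by 0.16 (SE 0.04, adjusted p 0.0236). The fall of Ly75 was lost in 3 of 24 fits without a library. In mTEChi Ctrl, Psmb11 had 31.1 and 69.2 CPM at days 2 to 3 and 38.9 CPM at day 1, against 6.19 and 8.66 CPM at day 6. Prss16 had 113, 230 and 135 CPM at days 1 to 3 and 43.3 and 39.3 CPM at day 6. Foxn1 had −0.04 per day (SE 0.03, adjusted p 0.547). Among the adult libraries of 4 to 6 weeks 0 of 9 members passed by edgeR, 0 at an unadjusted p under 0.05 and 0 by DESeq2, where 0.212% of all genes were called. The term fits 1 slope to all groups and cannot show ages that differ in opposite ways. In mTEChi WT Foxn1 had 165 to 177 CPM at 4 weeks and 182 to 249 at 5 weeks. In mTEChi AireKO it had 356 to 414 CPM at 5 weeks and 270 to 276 at 6 weeks. Age within single adult groups was not tested.

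**Figure D4:**
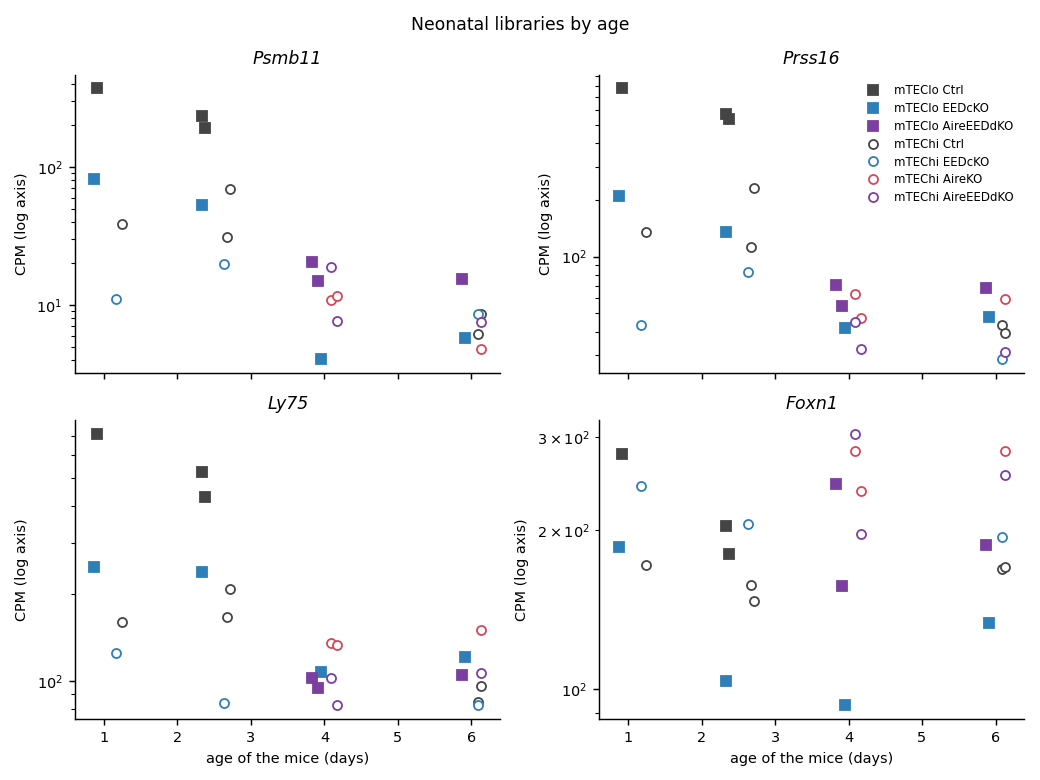
Level of Psmb11, Prss16, Ly75 and Foxn1 in each neonatal library against age in days, in CPM on a log axis. Squares are mTEClo and open circles mTEChi libraries, coloured by genotype, libraries of days 2 to 3 are drawn at the midpoint, and points are shifted slightly sideways. Psmb11 in mTEChi Ctrl falls from between 31.1 and 69.2 at days 1 to 3 to 6.19 and 8.66 at day 6.

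The likeness of pattern was measured by Pearson's r of log2 CPM over libraries, averaged over the 23 adult and 24 neonatal libraries, for 15376 protein-coding genes. The libraries share groups, ages and depth, so r describes the pattern over groups and is given without a test. Most like Foxn1 were Ache (mean r 0.911), Ufsp1 (0.901), Tbata (0.894), Vars (0.882) and Tspan18 (0.881), and Cd83 was at rank 40. Most like Psmb11 was Prss16 (mean r 0.835, with 0.716 in the adult and 0.955 in the neonatal libraries), followed by Zswim3, Cdh4, Nsf and Adhfe1. Psmb11 was at rank 5904 by its likeness to Foxn1, with r 0.25 in the adult and 0.0609 in the neonatal libraries. Levels of Foxn1 thus ran with Tbata and Cd83, and levels of Psmb11 with Prss16.

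**Figure D5:**
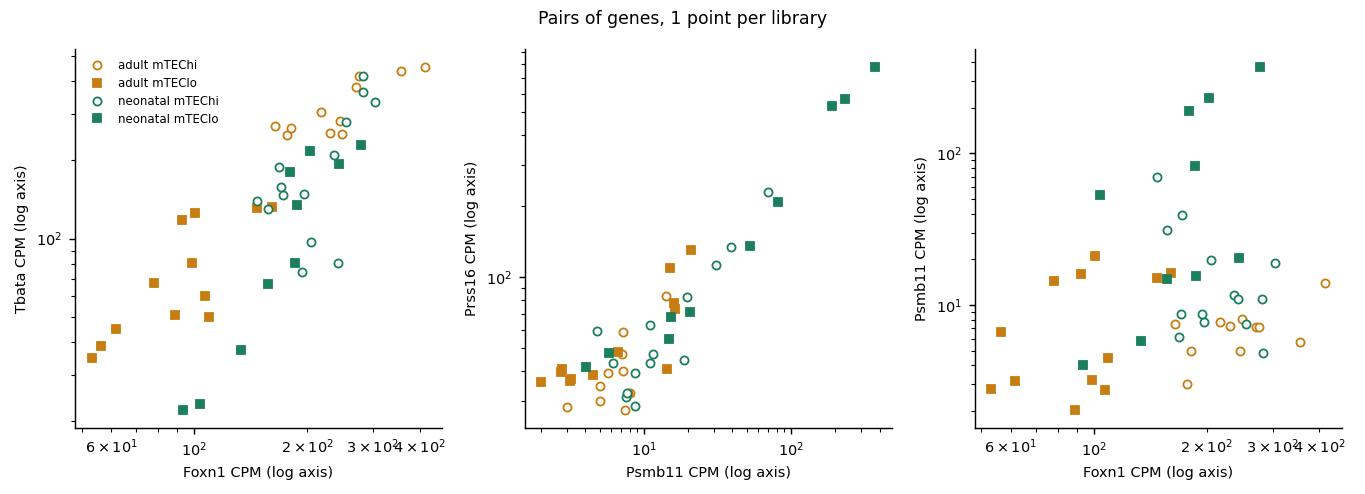
Level of Tbata against Foxn1, of Prss16 against Psmb11 and of Psmb11 against Foxn1, in CPM on log axes, with 1 point for each of the 47 libraries. The first 2 pairs lie along a rising band and the last does not, with r of 0.25 in the adult and 0.0609 in the neonatal libraries.

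Other genes of the cortical programme were read from a list of 9, namely the chemokines Ccl25 and Cxcl12, the cytokines Il7 and Kitl, the atypical chemokine receptor Ackr4, Slc46a2, Krt8, Krt18 and Snap91. In neonatal mTEClo 7 of 9 were called lower and 0 higher in EEDcKO, where 13.9% of all genes were called lower, with a median log2 fold change of −0.84. Ccl25, which draws progenitors into the thymus, fell by 2.44 on the log2 scale. Snap91 fell by 2.26, and Cxcl12, which guides early thymocytes through the cortex, fell by 1.92. Kitl, a growth factor for progenitors, fell by 0.96. In adult mTEClo AireKO, where 13.6% of all genes were called higher, 5 rose (Kitl by 1.36, Cxcl12 by 1.01, Snap91 by 1.00, Ccl25 by 0.59, and Ackr4) and Il7 fell. In adult mTEChi AireKO, where 55.3% of all genes were called, 3 rose (Snap91 by 0.85, Krt18 by 0.45 and Krt8 by 0.32) and 2 fell. Cxcl12 fell by 2.01 and Il7 fell by 0.44, and the median over the 9 was −0.000882. Of 3 other Notch ligands, Dll1, Jag1 and Jag2, all 3 were lower in adult mTEChi WT, where Dll4 was higher.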

How the data were processed

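The authors trimmed reads of RamDA-type libraries with fastp 0.20.0, mapped them to mm10 with STAR 2.7.3a, dropped mapping qualities under 5 with SAMtools 1.9, removed duplicates with Picard 2.21.1 and counted without strand with HTSeq 0.11.2. The deposited values used are raw read counts per Ensembl gene, and the authors' normalized tables were not used. Duplicate removal without molecular identifiers can flatten abundant genes.

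Libraries were grouped by their titles. The counts of 19310 adult and 20196 neonatal genes that passed filterByExpr were scaled by TMM and fitted in edgeR 4.0.16 (R 4.3.3, limma 3.58.1) with the quasi-likelihood F-test, all groups of a table in 1 fit and the tables apart. A gene passed, or was called, at a Benjamini-Hochberg adjusted p under 0.05 over all tested genes. All tests are 2-sided. CPM use TMM-scaled library sizes. RPKM and coordinates use GENCODE exons of GRCm38, the assembly of mm10. Fits were tested on simulated data. Precision rests on totals of 1578579 to 4817418 counts per library.

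The members and lists were chosen with earlier results of these data known. Named are all members, the 5 genes of nearest pattern to Foxn1 and to Psmb11, and members of the lists with values. Same-numbered libraries deviated together (r from 0.110 to 0.160) between adult AireKO fractions and (0.242 to 0.352) between neonatal AireEEDdKO fractions, which was read as pairing. Between neonatal mTEChi AireEEDdKO and AireKO (0.0899 to 0.186) pairing was read from the labelled age and sex, equal by number, in a choice made after the results were seen. Between adult AireKO fractions only 5 of 8 libraries correlated best with their own number. The same 5 of 8 held between adult mTEClo AireKO and WT, which were not read as pairs. Same-numbered adult AireKO libraries also had the same age, so pairing and age cannot be told apart there. The same holds between neonatal AireEEDdKO fractions, where replicate 1 was labelled female in mTEClo and pooled male and female in mTEChi. Alternatives were RLE factors, library size alone, no filter, a 2-fold minimum, age or sex as a term, age classes, libraries with or without mitochondrial counts, only the groups compared, the replicate block, DESeq2 1.42.0 and leaving out each library. A list of genes of the thymic primordium is not reported here.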

Additional observations from a re-analysis of the deposited data

Results flagged for a closer look

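In 5 of 54 groups of 4 to 10 libraries 1 library stood apart from the others of its group by Dixon's test, which flags about 1 in 20 groups by chance. These were Psmb11 at 14.4 CPM and Dll4 at 25.3 CPM, both in adult mTEClo WT replicate 1, Prss16 at 48.2 CPM in adult mTEClo WT replicate 3, Ly75 at 235 CPM in adult mTEChi WT replicate 2 and Enpep at 51.4 CPM in neonatal mTEChi Ctrl replicate 2. Effects that differed between the fractions (mTEChi minus mTEClo, log2 scale, tested as a difference of effects by edgeR) were those of Aire loss in adults on Enpep (−4.64), Ctsl (−1.63), Psmb11 (−1.50), Dll4 (−1.44), Cd83 (−1.29), Tbata (−0.61) and Ly75 (0.39), and those of EED loss in neonates on Dll4 (2.49) and Foxn1 (1.17).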

How the results depend on the processing

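Of 162 tests of a member in a comparison 73 passed, and 54 of the 73 passed in every fit that left out a library. Of 1483 alternative values of called members 1361 kept direction and call, 120 lost the call and 2 reversed. Leaving out each library in turn, the number of members that passed ran from 7 to 8 for Aire loss in adult mTEChi, 6 to 8 in adult mTEClo, 1 to 4 in neonatal mTEChi, 1 to 2 in EED-deficient mTEChi and 0 to 3 in EED-deficient mTEClo. It ran from 0 to 2 for EED loss in neonatal mTEChi, 8 to 8 in mTEClo and 1 to 1 in Aire-deficient mTEChi. Between fractions it ran from 7 to 8 in adult WT, 8 to 9 in adult AireKO, 5 to 5 in neonatal Ctrl, 2 to 5 without EED and 2 to 4 without both. Differences of effects gave 5 to 7 (Aire loss between adult fractions), 0 to 4 (EED loss between neonatal fractions) and 0 to 1 (Aire by EED), and age gave 0 to 0 per week and 2 to 4 per day. Counts moved by over 1.5 times as follows, and the causes were not tested. For EED loss in mTEChi (0 passed), RLE factors and DESeq2 gave 1, the replicate block 2, age or sex as a term 3, only the groups compared 4, and no filter or days 1 to 3 alone 6. The age classes and the age test per day were chosen after seeing the data. For Aire loss in neonatal mTEChi (4), a 2-fold minimum or days 4 to 6 alone gave 2, no filter or the replicate block 7 and only the groups compared 8. For Aire loss in EED-deficient mTEClo (1), only the groups compared or the replicate block gave 0, library size alone, age or sex as a term or DESeq2 gave 2, and no filter 4. For EED loss in Aire-deficient mTEChi (1), only the groups compared gave 3 and the replicate block 5. Aire loss in adult mTEClo (8) gave 5 with a 2-fold minimum, age as a term or the replicate block, and in adult mTEChi (8) a 2-fold minimum gave 2. Between fractions, only the groups compared gave 9 in neonatal Ctrl (5) and 2 in EEDcKO (5), where a 2-fold minimum or the replicate block gave 3, and the block gave 7 in AireEEDdKO (3). For EED loss between fractions (2) no filter gave 5 and the block 0. For Aire by EED (0) no filter, only the groups compared, the block or DESeq2 gave 1, and for age per day (3) no filter gave 5. Values that reversed were Enpep with Aire loss in adult mTEClo, at −0.29 (edgeR adjusted p 0.652) over libraries of 5 weeks and −0.20 (0.740) over libraries with mitochondrial counts, and Ly75 with Aire loss in neonatal mTEChi, which had not passed and was at 0.53 (adjusted p 0.0277) over days 4 to 6. In other comparisons than the 3 pairings given under processing, same-numbered libraries were not read as pairs. Library size alone moved the median of all genes by over 0.1 in 5 comparisons, by −0.161 for Aire loss in adult mTEChi, −0.215 in neonatal mTEChi and −0.134 in EED-deficient mTEChi, −0.13 between adult AireKO fractions and −0.18 for the difference of adult effects. Depth limits low members: per library, adult mTEClo WT held 2 to 12 reads of Cd83 and 5 to 26 of Psmb11, and adult mTEChi AireKO 3 to 15 of Enpep.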
